A study of Mus musculus with 6 samples.

Results

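Pparg and 8 genes of fatty acid uptake, binding and release were followed in the liver, 9 genes out of the 45777 in the deposited table. They were chosen by name, as the rows whose gene symbol was Pparg, Cd36, Fabp1, Fabp2, Fabp4, Slc27a2, Slc27a4, Lpl or Cfd. Livers of male C57BL/6 mice on a high-fat diet (HFD) were compared between 3 littermate controls (LT) and 3 hepatocyte-specific Fpn-deficient mice (Fpn-LKO), with 1 RNA-seq library per mouse. Mice of both groups carried Slc40a1 (Fpn) alleles flanked by loxP sites on both chromosomes, from a line of another background crossed back to C57BL/6J. The Fpn-LKO mice carried in addition Alb-Cre, a transgene in which the albumin promoter drives Cre recombinase, to delete the gene in hepatocytes. Deletion in other liver cells was not measured here. Per the methods, the HFD started at 8 weeks of age, and the length of feeding for these livers is not given in the sources used here.

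Peroxisome proliferator-activated receptor γ (PPARγ) is a nuclear receptor that binds DNA together with a retinoid X receptor (RXR) and is activated by fatty acids and their derivatives. It is best known as the regulator of adipocyte differentiation. In the liver its level is low, and in obese mice it is known to rise together with genes otherwise typical of fat cells. Fatty acids enter a hepatocyte with the help of the scavenger receptor CD36 and of the fatty acid transport proteins of the SLC27 family, which also couple them to coenzyme A, and they are carried through the cytosol by fatty acid-binding proteins. Lipoprotein lipase releases fatty acids from circulating triglycerides.

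Over the 17274 genes tested, 4 genes (0.0232%) had an adjusted p-value under 0.05, and none of the 9 genes did, with adjusted values between 0.982 and 0.995 (quasi-likelihood or QL test of edgeR, adjusted over all genes by Benjamini-Hochberg or BH). The largest log2 fold changes were those of Cfd, Fabp4 and Cd36, at 2.42, 1.07 and 1.00, each with the higher mean in the Fpn-LKO-labelled libraries. Slc27a2, Lpl, Fabp1 and Fabp2 had log2 fold changes between -0.31 and -0.10. At an unadjusted p-value under 0.05 there was 1 of the 9 genes, Fabp4, against 830 genes or 4.8% of all genes tested. DESeq2's Wald test gave 3 of the 9 at an unadjusted p-value under 0.05, against 5.22% of all genes, and edgeR's exactTest gave 1, against 4.6%, and neither gave any past the adjusted threshold, which 0.417% and 0.365% of all genes passed with these tests. Log2 fold changes were positive for 5 of the 9 genes and negative for 4, with a median of 0.24, where the median over all genes tested was -0.0040.

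All 9 genes passed the filter, which dropped every gene at 0 reads in at least 2 of the 6 libraries. Total counts on genes lay between 43086184 and 47778683 per library, and values are CPM, read counts relative to the library size after TMM scaling, always listed in the order of replicates 1 to 3. Slc40a1, the targeted gene, had 154, 180 and 126 CPM in the 3 LT mice against 143, 143 and 176 CPM in the Fpn-LKO-labelled libraries. Its count, over the whole gene and all cells of the liver piece, was thus no lower in those. The paper reports PCR genotyping of its mice and loss of FPN in hepatocytes of the Fpn-LKO line. For these 6 libraries the genotypes rest on the labels. The hepatocyte markers Alb, Apoa1, Ttr, Cps1, Hnf4a, Tat, Cyp2e1 and Asgr1 were all expressed, and summed to between 59560 and 74349 CPM in LT and between 61640 and 71711 CPM in the Fpn-LKO-labelled libraries.

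Start-site windows were found in the RefSeq table of GRCm38.p6 for 7 of the 9 genes, all but Fabp4 and Lpl, and were searched for the element that PPAR-RXR dimers are known to bind, a direct repeat of AGGTCA with 1 base between the copies (AGGTCANAGGTCA, where N is any base). Each window held 250 bases before and 50 after a start, both strands were searched, and up to 2 mismatches in the 12 bases of the repeat were allowed. A match was found for Fabp1 and for Cd36, and none in the windows of Pparg, Fabp2, Slc27a2, Slc27a4 and Cfd. The 7 genes had 9 windows, of which 2 held a match. Of all 32851 windows, 3.86% held a match, and of all 27025 genes with a window, 4.4% had a match. The 250 bases upstream of the start are shown for these genes, the only 2 of the 9 with a match, with the match in capitals and the gene's own strand written 5′ to 3′. The Fabp1 stretch is chr6:71199629-71199878 on the plus strand, with the match 67 to 55 bases before the start and 1 mismatch, and the Cd36 stretch is chr5:17835897-17836146 on the minus strand, with the match 63 to 51 bases before the start and 2 mismatches. The start used for Cd36 lies within the span of the gene given below, not at its outer end.
Fabp1: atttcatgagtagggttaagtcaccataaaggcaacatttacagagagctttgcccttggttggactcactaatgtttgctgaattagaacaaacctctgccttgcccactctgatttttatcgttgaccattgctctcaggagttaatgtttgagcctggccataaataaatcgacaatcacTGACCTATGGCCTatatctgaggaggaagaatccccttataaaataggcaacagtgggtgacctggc
Cd36: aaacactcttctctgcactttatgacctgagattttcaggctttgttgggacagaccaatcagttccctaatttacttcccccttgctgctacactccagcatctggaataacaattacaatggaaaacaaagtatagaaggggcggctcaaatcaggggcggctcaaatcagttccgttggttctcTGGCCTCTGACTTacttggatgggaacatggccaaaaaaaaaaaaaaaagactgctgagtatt
In both, the repeat reads on the strand opposite to the gene, as AGGCCATAGGTCA for Fabp1 and as AAGTCAGAGGCCA for Cd36. A match of letters is a description of the window, and binding was not measured. The log2 fold changes of these genes were of opposite sign, as given below with their errors.

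Pparg, NCBI gene 19016, spans 115360879 to 115490404 on chromosome 6 (GRCm38, RefSeq positions, as for the other genes). It had 6.89, 4.87 and 3.70 CPM in the 3 LT mice against 7.44, 4.798 and 7.24 CPM in the Fpn-LKO-labelled libraries. The groups overlapped, since Fpn-LKO replicate 2 lay below LT replicates 1 and 2. Group means of 5.15 ± 1.61 and 6.49 ± 1.47 CPM (SD, n = 3 each) gave a log2 fold change of 0.33 with a 95% interval from -0.33 to 0.99 (edgeR QL, BH-adjusted p = 0.985). Pparg had between 153 and 355 reads per library. The deposited table gives 1 count over 13 RefSeq transcripts of the gene, so its isoforms were not told apart.

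Cd36, gene 12491, encodes the membrane protein that takes up long-chain fatty acids and oxidised lipoproteins and is a known target of PPARγ in fatty liver. It lies on chromosome 5 from 17781690 to 17888959. Its level was 148, 60.0 and 39.9 CPM in the 3 LT mice against 291, 101 and 104 CPM in the Fpn-LKO-labelled libraries. The highest value of each group was replicate 1, and LT replicate 1 lay above Fpn-LKO replicates 2 and 3. Group means of 82.7 ± 57.7 and 165 ± 109 CPM (SD, n = 3 each) gave a log2 fold change of 1.00 with a 95% interval from -0.35 to 2.34 (edgeR QL, BH-adjusted p = 0.982). Within LT alone the level spanned 3.72-fold, wider than the 2.00-fold ratio of the fitted means. Leaving out Fpn-LKO replicate 1 gave a log2 fold change of 0.31 and leaving out LT replicate 1 gave 1.73.

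**Figure D1:**
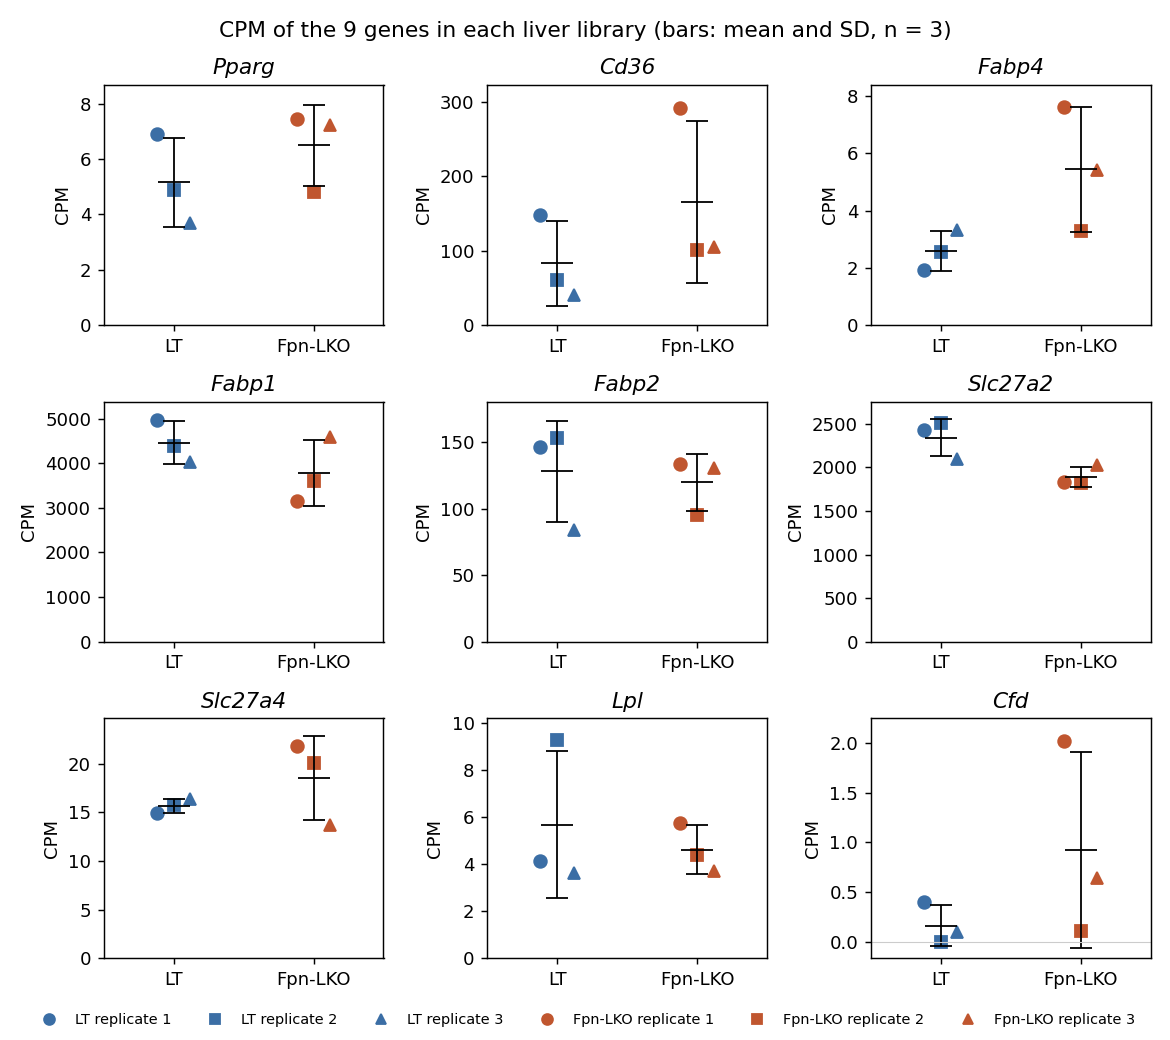
CPM of each of the 9 genes in each library, with LT in blue and the Fpn-LKO-labelled libraries in orange, the replicate number as the shape of the point, and black bars for the mean and SD (n = 3 each). Each panel has its own axis, and the groups are apart in the panel of Slc27a2 and overlap in the other panels.

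Fabp4 and Cfd are genes that PPARγ is known to drive in fat cells. Fabp4, gene 11770, the adipocyte and macrophage fatty acid-binding protein on chromosome 3 from 10204342 to 10208616, had 1.93, 2.54 and 3.31 CPM in the 3 LT mice against 7.63, 3.28 and 5.41 CPM in the Fpn-LKO-labelled libraries. Only LT replicate 3 and Fpn-LKO replicate 2 crossed, with the former slightly higher. In TPM, Fabp4 had 3.96, 4.67 and 5.56 TPM in LT and 13.8, 7.16 and 10.5 TPM in the others, without overlap. The share of all genes without overlap was taken in CPM only, so this has no background beside it. The log2 fold change was 1.07 with a 95% interval from 0.25 to 1.89 (edgeR QL, unadjusted p = 0.0174, BH-adjusted p = 0.982). Over all alternatives the adjusted p of Fabp4 ranged from 0.256 to 1.00. Cfd, gene 11537, which encodes the complement protease factor D (adipsin) and lies on chromosome 10 from 79890853 to 79892655, had read counts of 20, 0 and 4 in the 3 LT mice against 96, 5 and 30 in the Fpn-LKO-labelled libraries. These reads were 0.402, 0 and 0.0967 CPM in LT, with up to 0.0693 CPM allowed by the 0 reads of LT replicate 2 at 3 counts, and 2.01, 0.107 and 0.647 CPM in the others. The groups overlapped, and the log2 fold change of 2.42 had a 95% interval from -0.49 to 5.32 (edgeR QL, BH-adjusted p = 0.982). It was 1.14 without Fpn-LKO replicate 1 and 4.20 without LT replicate 1.

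Fabp4 and Cfd are also expressed by cells other than hepatocytes, and in pieces of liver a smaller number of cells of a type and less RNA per cell cannot be told apart. Of 8 adipocyte markers, Adipoq, Plin1, Lep, Retn and Slc7a10 had 0 reads in all 6 libraries. Aoc3, an amine oxidase of fat cells and smooth muscle, had 0 reads in each LT library, which allows up to 0.0725 CPM, and 0.105, 0.107 and 0.151 CPM in the Fpn-LKO-labelled libraries, on the side where Fabp4 and Cfd were higher, and its part in their difference was not tested. Cidea had a mean below 0.1 CPM in both groups. The summed level of the 8 was between 1.19 and 5.13 CPM in LT and between 0.750 and 1.55 CPM in the Fpn-LKO-labelled libraries. Most of it came from Adrb3, which encodes a β-adrenergic receptor, was the only adipocyte marker tested and lay on the side opposite to Fabp4 and Cfd, with means of 3.63 ± 2.22 and 0.842 ± 0.333 CPM (SD, n = 3 each) and a log2 fold change of -2.10 (edgeR QL, unadjusted p = 0.00888, BH-adjusted p = 0.937). The 10 endothelial markers, among them Pecam1 and Stab2, were all expressed and summed to between 335 and 385 CPM in LT and between 310 and 339 CPM in the Fpn-LKO-labelled libraries. Of these 10, 5 had the higher mean in the Fpn-LKO-labelled libraries. Lyve1 was the 1 with an unadjusted p-value under 0.05, against 4.8% of all genes. It was higher there, with a log2 fold change of 1.30 (edgeR QL, unadjusted p = 0.0446, BH-adjusted p = 0.982). The 12 Kupffer cell and macrophage markers summed to between 303 and 401 CPM in LT. In the Fpn-LKO-labelled libraries their sum lay between 271 and 536 CPM, with the highest sum in replicate 3. Of these 12, 8 had the higher mean in the Fpn-LKO-labelled libraries. An unadjusted p-value under 0.05 was found for 2, Ccr2 and Gpnmb, against 4.8% of all genes. Both were higher in the Fpn-LKO-labelled libraries, where 2.62% of all genes were at this threshold. Ccr2 had a log2 fold change of 0.83 (edgeR QL, unadjusted p = 0.0428, BH-adjusted p = 0.982). That of Gpnmb was 1.98 (edgeR QL, unadjusted p = 0.00547, BH-adjusted p = 0.823). The groups overlapped in the adipocyte, endothelial and macrophage sums (exact two-sided permutation test, p = 0.2, 0.2 and 0.9 in this order, where 0.1 is the smallest possible). The 8 stellate cell markers summed to between 418 and 493 CPM in LT and between 461 and 515 CPM in the Fpn-LKO-labelled libraries (p = 0.5 by the exact permutation test). Of these 8, 7 had the higher mean in the Fpn-LKO-labelled libraries. Pdgfrb was the 1 with an unadjusted p-value under 0.05, against 4.8% of all genes. Its log2 fold change was 0.47 (edgeR QL, unadjusted p = 0.046, BH-adjusted p = 0.982). Of the 39 markers of all cell types that were tested, 4 had groups without overlap, against 10.6% of all genes tested. All 4 were higher in the Fpn-LKO-labelled libraries, where 5.25% of all genes were. These were Gpnmb, a gene of lipid-laden macrophages, with means of 0.199 ± 0.111 and 0.788 ± 0.0809 CPM, the stellate cell markers Pdgfrb with 5.41 ± 0.302 and 7.51 ± 1.65 CPM and Col1a1 with 0.602 ± 0.293 and 1.26 ± 0.551 CPM, and the hepatocyte marker Hnf4a with 251 ± 13.1 and 313 ± 28.9 CPM (SD, n = 3 each). Spp1 and Trem2, also known from lipid-laden macrophages, had lower means in the Fpn-LKO-labelled libraries, with 35.4 ± 41.4 and 22.4 ± 4.56 CPM for Spp1 and 0.256 ± 0.344 and 0.233 ± 0.131 CPM for Trem2 (SD, n = 3 each). The LT means were raised by LT replicate 3 for Spp1 and by LT replicate 2 for Trem2. Spp1 had 11.9, 11.1 and 83.1 CPM in the 3 LT mice against 20.3, 27.7 and 19.4 CPM in the Fpn-LKO-labelled libraries. Trem2 had 0, 0.647 and 0.121 CPM in LT against 0.335, 0.278 and 0.0862 CPM in the others. No marker passed the adjusted threshold, and the part of these cells in the values of Fabp4, Cfd and Cd36 was not tested.

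**Figure D2:**
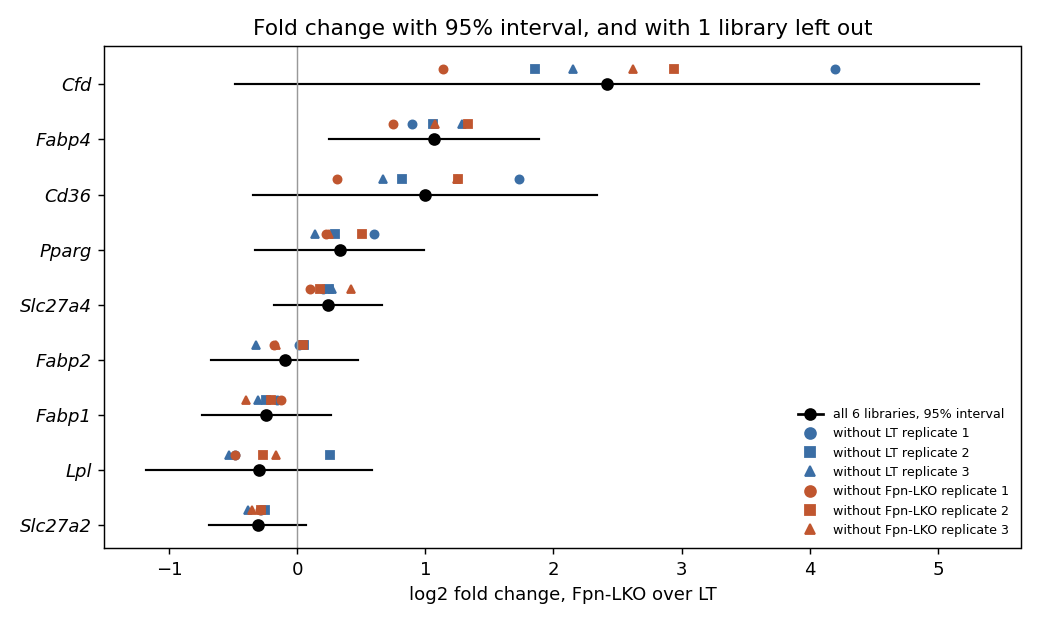
Log2 fold change of each gene, libraries labelled Fpn-LKO over LT, from all 6 libraries in black with its 95% interval, and above it the value with each library left out, coloured by group and shaped by replicate. The interval of Fabp4 lies above 0 and all others span 0, and the points of Cfd and Cd36 spread most.

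Fabp1 and Slc27a2 are the abundant hepatocyte members. Fabp1, gene 14080, the liver fatty acid-binding protein on chromosome 6 from 71199879 to 71205034, had 4976, 4387 and 4025 CPM in the 3 LT mice against 3149, 3602 and 4582 CPM in the Fpn-LKO-labelled libraries. Fpn-LKO replicate 3 lay among the LT values and the other 2 below them. The log2 fold change was -0.24 with a 95% interval from -0.74 to 0.26 (edgeR QL, BH-adjusted p = 0.985). Slc27a2, gene 26458, which encodes FATP2, a transporter and very-long-chain acyl-CoA synthetase, lies on chromosome 2 from 126553024 to 126588243. It had 2424, 2506 and 2097 CPM in the 3 LT mice against 1835, 1821 and 2022 CPM in the Fpn-LKO-labelled libraries. This was the 1 gene of the 9 whose groups did not overlap, against 10.6% of all genes tested. Its log2 fold change was -0.31 with a 95% interval from -0.69 to 0.073 (edgeR QL, BH-adjusted p = 0.982), and the exact two-sided permutation test gave p = 0.1, the smallest possible with 3 mice against 3. On the authors' TPM scale the groups of Slc27a2 overlapped, with 1481, 1364 and 1047 TPM in LT and 987, 1185 and 1162 TPM in the others. The GENCODE annotation places the lincRNA gene Gm26697 on the opposite strand over part of Slc27a2, and whether reads were counted by strand is not given in the sources used here.

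In TPM, Slc27a4 and Fabp2 had lower levels than these in every library. Slc27a4, gene 26569, which encodes FATP4 and lies on chromosome 2 from 29802634 to 29817522, had 14.9, 15.8 and 16.4 CPM in the 3 LT mice against 21.8, 20.03 and 13.7 CPM in the Fpn-LKO-labelled libraries. Its log2 fold change was 0.24 with a 95% interval from -0.18 to 0.66 (edgeR QL, BH-adjusted p = 0.982). Replicates 1 and 2 of the Fpn-LKO-labelled libraries lay above and replicate 3 below all 3 LT values. Fabp2, gene 14079, the intestinal fatty acid-binding protein on chromosome 3 from 122895072 to 122899506, had 147, 153 and 84.2 CPM in the 3 LT mice against 133, 94.8 and 131 CPM in the Fpn-LKO-labelled libraries. The enterocyte markers Sis, Lct, Cdx1, Cdx2, Alpi and Krt20 had 0 reads in all 6 libraries, and Vil1 was at 0.141 CPM in LT replicate 1 and at 0 elsewhere. The log2 fold change of Fabp2 was -0.10 with a 95% interval from -0.67 to 0.47. It turned to 0.03 with limma on log2(TPM + 1), where the median over all genes was 0.083, against -0.0040 in the main test.

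Lpl, gene 16956, which encodes lipoprotein lipase and lies on chromosome 8 from 68880555 to 68906932, had 4.14, 9.28 and 3.65 CPM in the 3 LT mice against 5.74, 4.41 and 3.73 CPM in the Fpn-LKO-labelled libraries. LT replicate 2 stood above the other 5 libraries, which lay between 3.65 and 5.74 CPM. The log2 fold change was -0.30 with a 95% interval from -1.18 to 0.59 (edgeR QL, BH-adjusted p = 0.995), and without LT replicate 2 it turned to 0.25. Stretches of up to 419 bases of Lpl transcripts matched transcripts of 98 other genes at 90% identity or more, so some of its reads may have been shared, whereas no such match was found for Pparg, Cd36, Fabp1, Fabp2, Fabp4, Slc27a4 and Cfd.

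Levels of different genes were set side by side in TPM, the authors' values scaled to transcript length. Fabp1 was highest with 11140 ± 2340 TPM in LT and 9995 ± 2161 TPM in the Fpn-LKO-labelled libraries (SD, n = 3 each), the ninth-highest mean of all genes tested. Slc27a2 followed with 1297 ± 224 and 1111 ± 108 TPM, and Fabp2 with 171 ± 61.6 and 166 ± 16.6 TPM. Cd36 came next with 35.1 ± 29.3 and 74.0 ± 44.3 TPM. The ranges of Fabp1 and Slc27a2 over the 6 libraries overlapped no neighbour in this order, while Fpn-LKO replicate 1 brought the range of Cd36 up to 125 TPM, above the lowest Fabp2 value of 100 TPM in LT replicate 3. Fabp4, Slc27a4, Pparg, Lpl and Cfd lay lower, with means over the 6 libraries from 7.61 down to 0.747 TPM. Each of these overlapped the next in the order, while all values of Fabp4 and Slc27a4, from 3.96 TPM up, lay above all values of Lpl and Cfd, which reached 2.87 TPM.

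**Figure D3:**
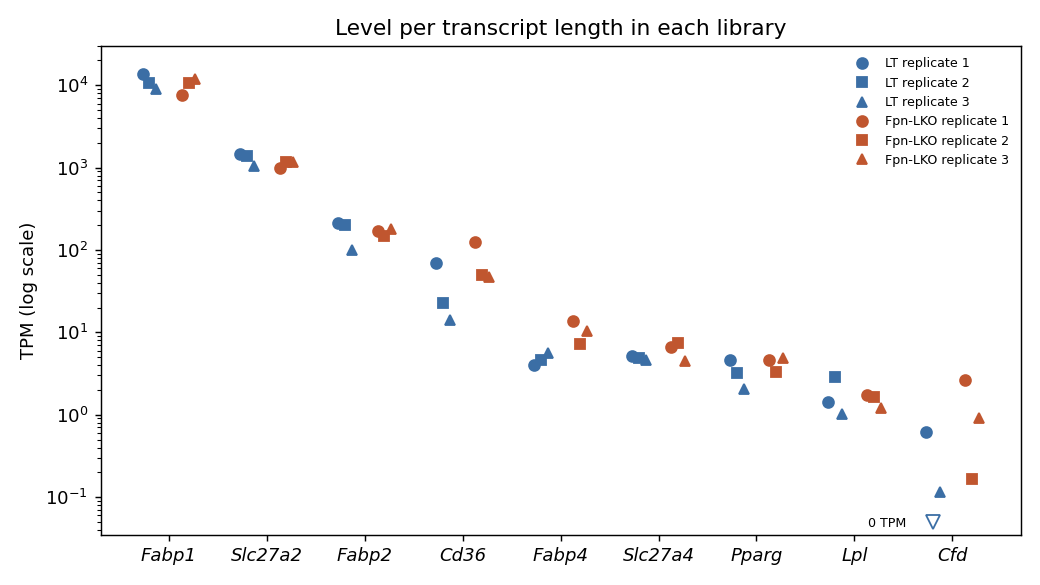
Level of each gene in each library in TPM on a log axis, in order of the mean over the 6 libraries, with colours and shapes for group and replicate; the open triangle marks LT replicate 2 of Cfd, at 0 TPM. Fabp1 and Slc27a2 stand apart from the genes next to them, Fabp4 lies just below Cd36, and from Fabp4 to Cfd each range overlaps the next.

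The spread within a group differed widely between the 9 genes. In LT the coefficient of variation of the CPM values was 4.61% for Slc27a4, 9.22% for Slc27a2 and 10.8% for Fabp1. It was 54.9% for Lpl, 69.7% for Cd36 and highest, at 126%, for Cfd. Over all 6 libraries Cd36 spanned 7.29-fold, from LT replicate 3 to Fpn-LKO replicate 1, Fabp4 spanned 3.96-fold and Slc27a2 1.38-fold. For Pparg, Cd36 and Cfd, replicate 1 was the highest library in each group, whereas for Fabp4 LT replicate 1 was the lowest of all.

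The genes whose pattern over the 6 libraries was most like that of Pparg were sought by the root mean square difference between log2 CPM values, each centred on the gene's own mean, over 12576 genes with a mean of at least 1 CPM. The closest were Alg14 at 0.083, Fas at 0.087, Pawr at 0.092, TrnY at 0.101 and Sqstm1 at 0.107, where the median over all genes was 0.436. Fas, which encodes a death receptor, had 22.1, 16.8 and 13.9 CPM in the 3 LT mice against 23.7, 17.6 and 24.5 CPM in the Fpn-LKO-labelled libraries, with LT replicate 3 lowest and Fpn-LKO replicates 1 and 3 highest, as for Pparg. For Cd36 the closest were 9030616G12Rik at 0.243, Oat at 0.277, Clstn3 at 0.279, Pnldc1 at 0.287 and Tceal8 at 0.297, with a median of 0.941 over all genes. Oat, the mitochondrial ornithine aminotransferase, had 1249, 756 and 445 CPM in the 3 LT mice against 2432, 1004 and 1459 CPM in the Fpn-LKO-labelled libraries. The distance between Pparg and Cd36 was 0.623, which made Pparg number 181 of the 12576 genes in likeness to Cd36 and Cd36 number 11062 in likeness to Pparg. The values were centred but not scaled, so the distance depends on the size of the changes as well as on their order. Over the 6 libraries Cd36 spanned 7.29-fold and Pparg 2.01-fold. These distances describe 6 libraries, and shared control of the genes was not tested.

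Receptors and partners of PPARγ were described from a list of 23 genes, all tested, and none passed the adjusted threshold of the edgeR QL test. At an unadjusted p-value under 0.05 there was 1 of the 23, Nr1h3, the sterol receptor LXRα, against 4.8% of all genes. Nr1h3 had 76.2, 72.7 and 69.8 CPM in the 3 LT mice against 85.1, 85.9 and 86.7 CPM in the Fpn-LKO-labelled libraries, a log2 fold change of 0.24 with a 95% interval from 0.016 to 0.46 (edgeR QL, BH-adjusted p = 0.982). Tle3 was the other of the 2 genes without overlap, against 10.6% of all genes tested. Both were higher in the Fpn-LKO-labelled libraries, where 5.25% of all genes were. Tle3 had 2.59, 5.31 and 3.96 CPM in the 3 LT mice against 6.52, 6.47 and 5.34 CPM in the Fpn-LKO-labelled libraries. Ppara, the PPAR that governs fatty acid oxidation in the liver, had means of 419 ± 86.3 and 404 ± 33.3 CPM (SD, n = 3 each). Rxra, the partner of both receptors, had 195 ± 26.1 and 172 ± 25.4 CPM, and the coactivator gene Ppargc1a had 4.82 ± 2.25 and 7.04 ± 1.78 CPM (SD, n = 3 each). The median log2 fold change of the 23 was 0.012.

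Genes that PPARγ is known to drive in fatty liver or fat cells, beyond the 9, formed a list of 25, of which 20 were tested and Cidea, Adipoq, Aqp7, Retn and Slc2a4 had 0 reads in more than 1 library. None of the 20 passed the adjusted threshold, 2 had an unadjusted p-value under 0.05, both higher in the Fpn-LKO-labelled libraries, where 2.62% of all genes were, and the median log2 fold change was 0.088. These were Plin4, a lipid droplet coat gene, and Mogat1, which encodes an acyltransferase of triglyceride synthesis. Plin4 had 57.0, 22.0 and 16.3 CPM in the 3 LT mice against 149, 56.0 and 76.4 CPM in the Fpn-LKO-labelled libraries, with a log2 fold change of 1.56 and a 95% interval from 0.32 to 2.80 (edgeR QL, BH-adjusted p = 0.982). As with Cd36, replicate 1 was highest in both groups, and LT replicate 1 reached into the range of the Fpn-LKO-labelled libraries. Mogat1 had 1.77, 0.693 and 1.498 CPM in the 3 LT mice against 9.60, 3.06 and 1.19 CPM in the Fpn-LKO-labelled libraries, so that its log2 fold change of 1.80 rested on replicates 1 and 2 while replicate 3 lay within the LT values. Plin2, the main droplet coat gene of hepatocytes, had means of 681 ± 264 and 935 ± 122 CPM, Cidec had 7.21 ± 5.03 and 9.46 ± 4.13 CPM, and Angptl4 had 184 ± 38.5 and 191 ± 18.8 CPM (SD, n = 3 each). No gene of this list had groups without overlap.

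Of 20 other genes of fatty acid uptake, binding and activation (Acsl1 stands in this list and in the list of targets), 15 were tested, 11 of them with a negative log2 fold change, and the median was -0.24. None passed the adjusted threshold, and 3 had an unadjusted p-value under 0.05, against 4.8% of all genes. All 3 were lower in the Fpn-LKO-labelled libraries and without overlap, where 2.19% of all genes were lower at this threshold and 5.34% were lower without overlap. Groups without overlap in either direction made up 10.6% of all genes. Acsl3, an acyl-CoA synthetase found on lipid droplets, had 20.7, 17.3 and 12.2 CPM in the 3 LT mice against 9.73, 10.8 and 9.55 CPM in the Fpn-LKO-labelled libraries, a log2 fold change of -0.74 with a 95% interval from -1.21 to -0.27 (edgeR QL, BH-adjusted p = 0.863). Slc27a1, which encodes FATP1, had 5.24, 6.60 and 5.49 CPM in the 3 LT mice against 4.26, 4.498 and 4.20 CPM in the Fpn-LKO-labelled libraries. Slc27a6, a further member of the transporter family at under 1 CPM and named after its values were seen, had means of 0.518 ± 0.0404 and 0.213 ± 0.0454 CPM (SD, n = 3 each). Slc27a5, the liver transporter and bile acid-CoA ligase, had 775 ± 133 and 933 ± 59.1 CPM, and Acsl1, the main hepatic acyl-CoA synthetase, had 3141 ± 336 and 2955 ± 231 CPM (SD, n = 3 each).

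Partners of lipoprotein lipase and related lipases made up a list of 20 genes, of which 19 were tested and Pnlip, the pancreatic lipase, had no reads. None passed the adjusted threshold and 1 had an unadjusted p-value under 0.05, namely Sel1l, an adaptor of protein degradation in the endoplasmic reticulum that also aids the maturation of lipoprotein lipase, where 4.8% of all genes were under this threshold. Sel1l had 141, 164 and 176 CPM in the 3 LT mice against 234, 186 and 208 CPM in the Fpn-LKO-labelled libraries, the 1 gene of the 19 without overlap, against 10.6% of all genes, and its log2 fold change was 0.38 with a 95% interval from 0.061 to 0.71 (edgeR QL, BH-adjusted p = 0.982). Gpihbp1, which carries the lipase across the capillary wall, had means of 13.4 ± 0.417 and 13.8 ± 1.23 CPM (SD, n = 3 each). The activator Apoc2 had 145 ± 35.2 and 190 ± 26.0 CPM, the inhibitor Apoc3 had 1062 ± 135 and 1204 ± 105 CPM, and the hepatic lipase Lipc had 117 ± 35.3 and 121 ± 22.9 CPM (SD, n = 3 each). The median log2 fold change of the 19 was 0.17.

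**Figure D4:**
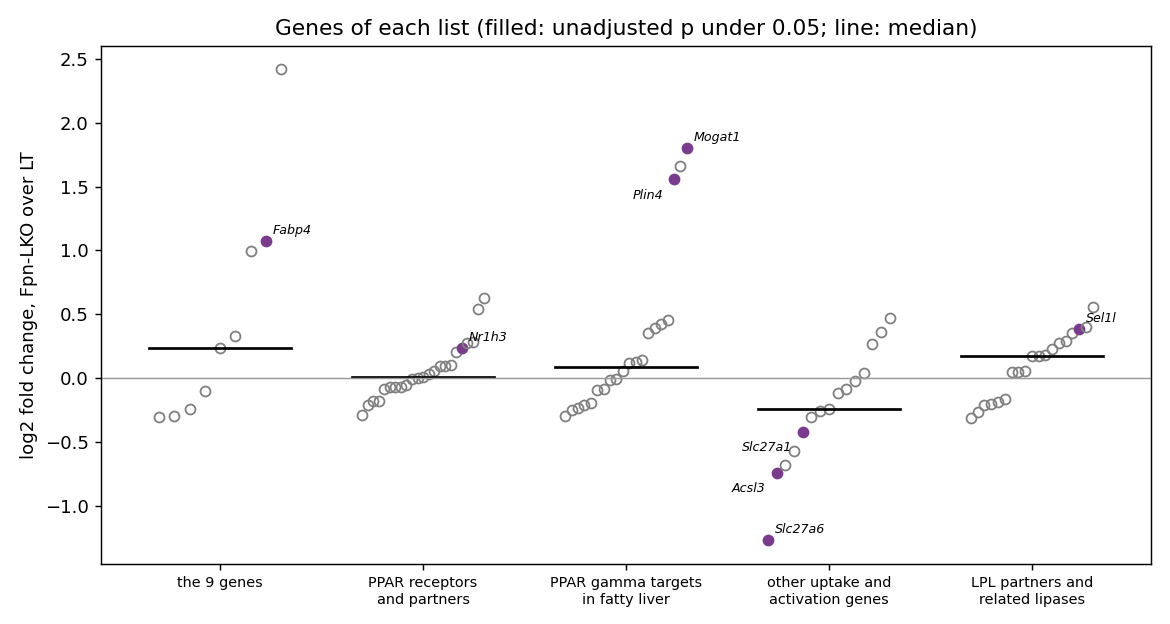
Log2 fold change of every tested gene, libraries labelled Fpn-LKO over LT, for the 9 genes and the 4 related lists, sorted within each list, with filled points at an unadjusted p-value under 0.05 (edgeR QL) and a line at the median. Between 1 and 3 genes per list are filled, and none of these passed the adjustment over all genes.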

How the data were processed

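Liver RNA of 3 LT and 3 Fpn-LKO male mice was sequenced as 1 library per mouse, all given as batch 1. The processing notes of the labels name HISAT2 2.1.0, Bowtie2 2.3.4.1 and StringTie 2.1.3b and the build mm10, and the methods derive read counts with StringTie. The library kit differs between sources, with removal of rRNA in the methods and an mRNA kit in the labels. The authors deposited read counts per RefSeq gene without normalization, FPKM (not used in a test here) and TPM, both scaled to transcript length, with TPM summing to the same total in every library. Total counts lay between 43086184 and 47778683. The common biological coefficient of variation was 0.275. Limits from 0 reads cover counting error only.

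Counts were tested with edgeR 4.0.16 in R 4.3.3 (quasi-likelihood test, TMM scaling, genes with 0 reads in more than 1 library left out, 17274 genes tested), in place of the exactTest of the methods. Adjustment over all genes followed Benjamini and Hochberg (threshold 0.05), and 95% intervals came from the F statistic and its degrees of freedom. The fits were tested on simulated data. Alternatives were RLE size factors, DESeq2 1.42.0 (without independent filtering), exactTest, other filters on low counts, the replicate number as a block, limma 3.58.1 with genes of 1 TPM or more on average and a pseudocount of either 1 or 0.1 before the log2 transformation, and leaving out each library. Leaving out both libraries numbered 1 was chosen after seeing the data. Copies were searched with BLAST 2.17.0 in GENCODE transcripts, over at least 100 bases, and gene positions were taken from RefSeq.

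The 9 genes, the related lists and the markers were chosen with earlier results of these data known. Named genes were the 9, Slc40a1, up to 6 genes of a list with the largest fold changes among those with at least 1 CPM and no overlap, well-known regulators, and the 5 genes most like Pparg or Cd36, while others were named after their values were seen. Replicates are separate mice.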

Additional observations from a re-analysis of the deposited data

How the results depend on the processing

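None of the 9 genes had an adjusted p-value under 0.05 in any of the 15 alternatives, with adjusted p between 0.256 and 1.00 over all of them. Pparg, Cd36, Fabp1, Fabp4, Slc27a2, Slc27a4 and Cfd kept the sign of their log2 fold change in every alternative run, where Cfd had no value in limma because its mean was under 1 TPM. Fabp2 turned from -0.10 to 0.027 with limma on log2(TPM + 1) and 0.028 on log2(TPM + 0.1). The medians over all genes tested with limma were 0.083 and 0.097 in the same order, against -0.0040 in the main test. Fabp2 lay between -0.32 and 0.06 when single libraries were left out. It was 0.011 without LT replicate 1, 0.057 without LT replicate 2 and 0.045 without Fpn-LKO replicate 2. With single libraries left out, Lpl lay between -0.54 and 0.25, the latter without LT replicate 2. The count at an unadjusted p-value under 0.05, 1, was 3 with DESeq2 and 3 with the replicate block, where 5.22% and 4.92% of all genes were under it, and ranged from 0 without Fpn-LKO replicate 1 to 2 without LT replicate 1, Fpn-LKO replicate 2 or Fpn-LKO replicate 3, with between 4.53% and 4.84% of all genes under it in these 4 settings. The causes were not tested.

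With single libraries left out, the log2 fold change of Cd36 ranged from 0.31 to 1.73, that of Fabp4 from 0.75 to 1.33, that of Pparg from 0.14 to 0.60 and that of Cfd from 1.14 to 4.20. Leaving out both libraries numbered 1 gave 1.04 for Cd36, 0.57 for Fabp4 and -0.67 for Lpl.

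Same-numbered libraries deviated from their group means with correlations across genes from 0.0048 to 0.230, over 0.1 for 2 of the 3 pairs, and 4 of the 6 libraries correlated best with their own number. The numbers are carried by different mice and were not taken as a pairing. With the replicate block, the log2 fold change of Cd36 was 1.04 (unadjusted p = 0.000784, edgeR QL, BH-adjusted p = 0.515) and the count of all genes past the adjusted threshold went from 4 to 0. For Cfd, between 0 and 96 reads per library limit the precision.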

Other observations

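The genes in this paragraph were chosen after their values were seen. Scd1, which encodes the desaturase that makes monounsaturated fatty acids, varied more between libraries than any of the 9 genes with a read in every library, from 46.1 CPM in Fpn-LKO replicate 3 to 1222 CPM in Fpn-LKO replicate 1, and had 283, 167 and 64.0 CPM in LT replicates 1 to 3. Its log2 fold change of 1.66 had a 95% interval from -0.69 to 4.01 (edgeR QL, BH-adjusted p = 0.982). Fabp5, the epidermal fatty acid-binding protein, had 7.49, 16.5 and 51.0 CPM in the 3 LT mice against 5.66, 16.4 and 24.7 CPM in the Fpn-LKO-labelled libraries, so that replicate 1 was the lowest library of each group, where it was the highest for Cd36.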
